A study of Saccharomyces cerevisiae with 24 samples.

Results

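The haploid yeast strain D1/2/8/11 was compared with the euploid strain (WT) sequenced in the same run. The members are the libraries of that run: 2 footprint (FP) and 2 total mRNA libraries from 2 cultures of D1/2/8/11, set against 1 FP and 1 mRNA library from 1 culture of WT. They were chosen by genotype and run, and they make up 6 of the 24 libraries of the series. D1/2/8/11 (KLY193, MATa ura3 his3 leu2) carries a single extra copy of each of chromosomes I, II, VIII and XI, and WT (RLY2626) is MATa ura3 his3 trp1 leu2 with no extra chromosome. KLY193 is 1 isolate derived from a strain that also carried chromosome XIII in duplicate, and a cassette with a TRP1 marker restored the wild-type CAK1 sequence in it. The extra chromosomes, the cassette and the TRP1 marker therefore separate the strains together and cannot be told apart. All cultures grew in rich medium (YPD) at 25 °C and were treated with cycloheximide shortly before harvest. D1/2/8 (NVY3, 1 culture) and D1/8 (KLY194, 2 cultures) of the same run and mating type are given beside some results. They share the WT libraries, so their values are listed side by side and not as independent support. According to the paper, NVY3 carries an inherited missense mutation in CAK1, the gene restored in KLY193. NVY3 and KLY193 therefore differ in CAK1 and in TRP1 expression as well as in chromosome XI, and these cannot be told apart.

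In ribosome profiling, the stretch of mRNA covered by a translating ribosome is protected from nuclease and sequenced. The FP level of an open reading frame (ORF) therefore reflects both its mRNA and how many ribosomes each mRNA carries, and the ratio of FP to mRNA is called ribosome density here. An extra chromosome gives a cell a second template for every gene on it, and expression in proportion to copy number appears as a log2 change of 1. Surplus subunits of protein complexes lack partners and can misfold, and they are handled by chaperones and by the proteasome, a barrel of proteolytic subunits (20S) capped by a regulatory particle (19S) that recognizes and unfolds ubiquitin-tagged proteins.

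The libraries of D1/2/8/11 held 8479044 and 21812958 FP reads and 28492921 and 22374013 mRNA reads, against 12867431 FP and 30560531 mRNA reads in WT. The median ORF held 277 and 754 FP reads in D1/2/8/11 and 635 in WT, and at least 1570 mRNA reads in each of the 3 cultures. Values are RPKM (reads per kilobase of coding sequence, scaled to library depth), which can be compared between genes because they are per length. Changes are log2 ratios of D1/2/8/11 to WT, centred on ORFs of the 12 nonduplicated chromosomes. The log2 difference between the 2 D1/2/8/11 cultures had an SD of 0.34 in FP and 0.18 in mRNA over those ORFs, and 6.23% of the ORFs in FP and 2.40% in mRNA differed at least 1.5-fold between the cultures. An ORF was called changed when limma gave an adjusted p under 0.05 and both cultures lay at least 1.5-fold from WT in the same direction. The WT is a single library, so the test assumes that it varies like the strains with 2 cultures. What is particular to that WT culture cannot be told apart from what is particular to euploidy, and the results were therefore also set against the WT of run 1 and against D1/8.

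The strain labels were checked first. TRP1, the marker that WT lacks, had 62.0 and 60.3 RPKM in FP and 374 and 358 RPKM in mRNA in D1/2/8/11, and was listed at 0 in both WT libraries. The strain list of the study gives KLY194 (D1/8) the same cassette, but TRP1 was at 0 and 0.259 RPKM of FP and at 0 in mRNA in D1/8, so these libraries go against that entry. Their chromosomes fit the label, with FP medians of 1.10 and 1.12 on chromosome I, 1.00 and 0.98 on chromosome VIII and 0.00 and 0.01 on chromosome II. D1/8 below means the libraries with that label. TRP1 was at 0 in FP and at 0.692 RPKM in mRNA in D1/2/8, so the marker also separates that strain from D1/2/8/11. In D1/2/8 chromosome XI, for which the label gives no extra copy, had a median of 0.24 in FP and 0.23 in mRNA. HIS3 mRNA was listed at 0 in all 3 cultures, whereas LEU2 and URA3 had reads in each. The genes of α cells (STE3, MF(ALPHA)1 and MF(ALPHA)2) did not exceed 6.81 RPKM in D1/2/8/11 or 4.58 RPKM in WT, while the a-factor gene MFA2 had 136 and 125 RPKM of mRNA in D1/2/8/11 and 487 RPKM in WT, so the libraries hold the a-type transcripts that the label implies. CAK1, which encodes the kinase that activates Cdc28 and is the gene repaired in KLY193, stood apart. Its mRNA was 187 and 183 RPKM in D1/2/8/11, 37.5 RPKM in D1/2/8, 45.3 and 37.6 RPKM in D1/8 and 37.5 RPKM in WT (log2 change 2.30, SE 0.11, adjusted p = 1.3e-07). Its FP did not pass the test, at 29.7 and 20.9 RPKM in D1/2/8/11 and 22.1 RPKM in WT, so that its ribosome density fell by 2.13 on the log2 scale (adjusted p = 0.0054).

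ORFs on the 4 duplicated chromosomes stood close to the level that a second copy would give. Their median log2 change was 0.97 ± 0.019 in FP and 0.94 ± 0.0021 in mRNA (SD of 2 cultures). By chromosome, the FP medians ran from 0.94 on chromosome I to 0.99 on chromosome XI, and the mRNA medians from 0.66 ± 0.073 on chromosome I to 1.04 ± 0.0041 on chromosome XI. On the nonduplicated chromosomes no median lay further from 0 than -0.18 (chromosome III, mRNA). The gap between the cultures on chromosome I was 0.71 against 0.61 in mRNA, the widest of the 4.

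**Figure D1:**
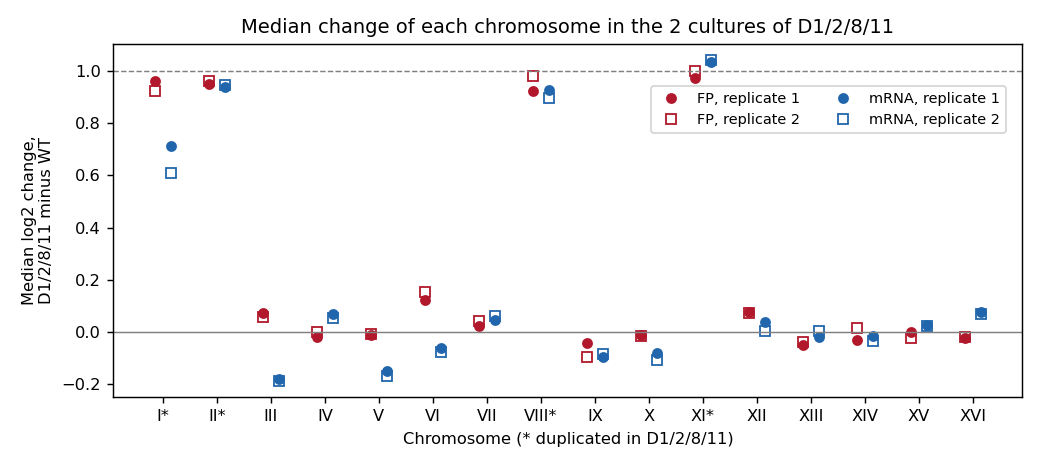
Median log2 change (D1/2/8/11 minus WT) of the ORFs of each chromosome, drawn separately for each culture in FP and mRNA, with the dashed line at 1, the value of a second copy. The 4 chromosomes marked with an asterisk sit between 0.90 and 1.04, apart from the mRNA of chromosome I at 0.71 and 0.61.

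Single genes were spread around that level. Of 949 duplicated ORFs tested in FP, 85 (8.96%) were called above the doubled level and 232 (24.4%) below it, and of 1037 tested in mRNA 70 (6.75%) were above and 214 (20.6%) below. Centring on ORFs without a predicted hydrophobic segment changes these to 50 above and 259 below in FP, and 38 above and 258 below in mRNA. With the WT of run 1, 124 were above in mRNA. In mRNA, 33 of the 90 ORFs of chromosome I were called below the doubled level, against 72 of 384 on chromosome II, 61 of 252 on chromosome VIII and 48 of 311 on chromosome XI. Few duplicated ORFs were called lower than in WT itself: 102 (10.7%) in FP and 27 (2.6%) in mRNA, while 601 (63.3%) and 705 (68%) were called higher than in WT. In all, 20.2% of the nuclear ORFs tested were called higher and 19.8% lower in FP, and 19.2% and 14.2% in mRNA.

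Genes are named below by rank among ORFs with at least 10 RPKM in WT and in both D1/2/8/11 cultures. The ORFs furthest above the doubled level in FP were ARO9, FMP46, TAE1, TIM12 and GPX2. ARO9 on chromosome VIII encodes an aromatic aminotransferase that starts the breakdown of tryptophan, phenylalanine and tyrosine. It had 622 and 533 RPKM in FP and 699.8 and 741 RPKM in mRNA in D1/2/8/11, and 59.7 RPKM in FP and 139 RPKM in mRNA in WT. Both cultures were far above WT, and the change beyond doubling was 2.27 in FP (adjusted p = 5.9e-05) and 1.37 in mRNA (SE 0.083, adjusted p = 1.1e-06). In D1/8, where chromosome VIII is also duplicated, ARO9 had 92.2 and 97.1 RPKM in FP, and in D1/2/8 it had 482 RPKM. GPX2 on chromosome II, a glutathione peroxidase, had 972 and 812 RPKM in FP in D1/2/8/11 and 176 RPKM in WT, and exceeded doubling by 1.33 in FP and 1.46 in mRNA. TAE1, a methyltransferase that modifies ribosomal protein Rpl12, had 380.1 and 398 RPKM of FP in D1/2/8/11 and 67.3 RPKM in WT. It was 1.53 above doubling in FP (adjusted p = 7.9e-05) but at -0.01 in mRNA, and against the WT of run 1 the FP value was 0.40 and not called. FMP46 and the mitochondrial import chaperone TIM12 showed the same split, at 1.7 and 1.46 above doubling in FP and 0.16 and 0.03 in mRNA, the last values not passing the test. TAE1, FMP46 and TIM12 have short coding sequences, of 699, 402 and 330 bases, and FP changes moved with coding length, as described below. In mRNA the methionine permease MUP3 (1.45), the respiratory regulator HAP4 (1.32) and SHE3 (1.08), a carrier of localized mRNAs, were also among the 5 furthest above doubling. MUP3 and HAP4 mRNA were also high in the other strains, with the second copy not subtracted. MUP3, on chromosome VIII, changed against WT by 2.14 in D1/2/8 and by 2.05 and 1.93 in D1/8. HAP4, on chromosome XI, changed by 1.96 in D1/2/8 and by 1.05 and 1.16 in D1/8, whose labels give no extra chromosome XI. SHE3, on chromosome II, changed by 2.08 in D1/2/8 and by 0.05 and 0.24 in D1/8. MUP3 FP was 0.40 above doubling in D1/2/8/11 and did not pass the test, and SHE3 was not called against the WT of run 1 (0.59).

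The ORFs furthest below the doubled level were mostly membrane proteins. YRO2 on chromosome II, a plasma membrane protein related to Hsp30, had 19.1 and 16.9 RPKM in FP in D1/2/8/11 and 111 RPKM in WT, a change relative to doubling of -3.63 (adjusted p = 4.2e-05), and of -2.51 in mRNA. YPF1, a protease of the ER membrane, had 30.2 and 24.0 RPKM in D1/2/8/11 and 109.7 RPKM in WT (-3.03 relative to doubling in FP, -0.65 in mRNA). STE6, which exports a-factor, had 18.2 and 22.1 RPKM in D1/2/8/11 and 80.7 RPKM in WT, with changes relative to doubling of -3.01 in FP and -1.16 in mRNA. The ceramide synthase LAC1 and the drug exporter QDR3 followed at -2.94 and -2.87 relative to doubling in FP. In mRNA, NCP1 (cytochrome P450 reductase, -2.42), the arginine enzyme ARG4 (-2.31), YHL049C and YKR040C were also among the 5 lowest. YKR040C has no coding sequence in the reference annotation and its FP differed more than 6-fold between the 2 cultures, at 3550 and 567 RPKM, so its value is uncertain.

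On the nonduplicated chromosomes, 417 of 4091 ORFs (10.2%) were called higher in FP and 894 (21.9%) lower. In mRNA, 365 of 4536 (8.05%) were called higher and 764 (16.8%) lower. The balance depends on the zero point: nonduplicated ORFs without a predicted hydrophobic segment had a median of 0.16 in FP and 0.12 in mRNA, and centring on them moves every change down by that much and gives 230 higher and 1031 lower in FP and 214 higher and 948 lower in mRNA. Of the ORFs called in FP, 88 were higher and 674 lower by at least 2-fold in both cultures. The WT library matters as well. With the WT of run 1 as the euploid library (run and strain then cannot be told apart), 1305 ORFs were called in FP, of which 880 were shared with the 1311 above and 8 were called the other way. With D1/8 in place of WT, 1159 were called, 918 shared and 8 the other way, and 275 of them were higher. In mRNA the WT of run 1 gave 556 higher ORFs in place of 365.

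**Figure D2:**
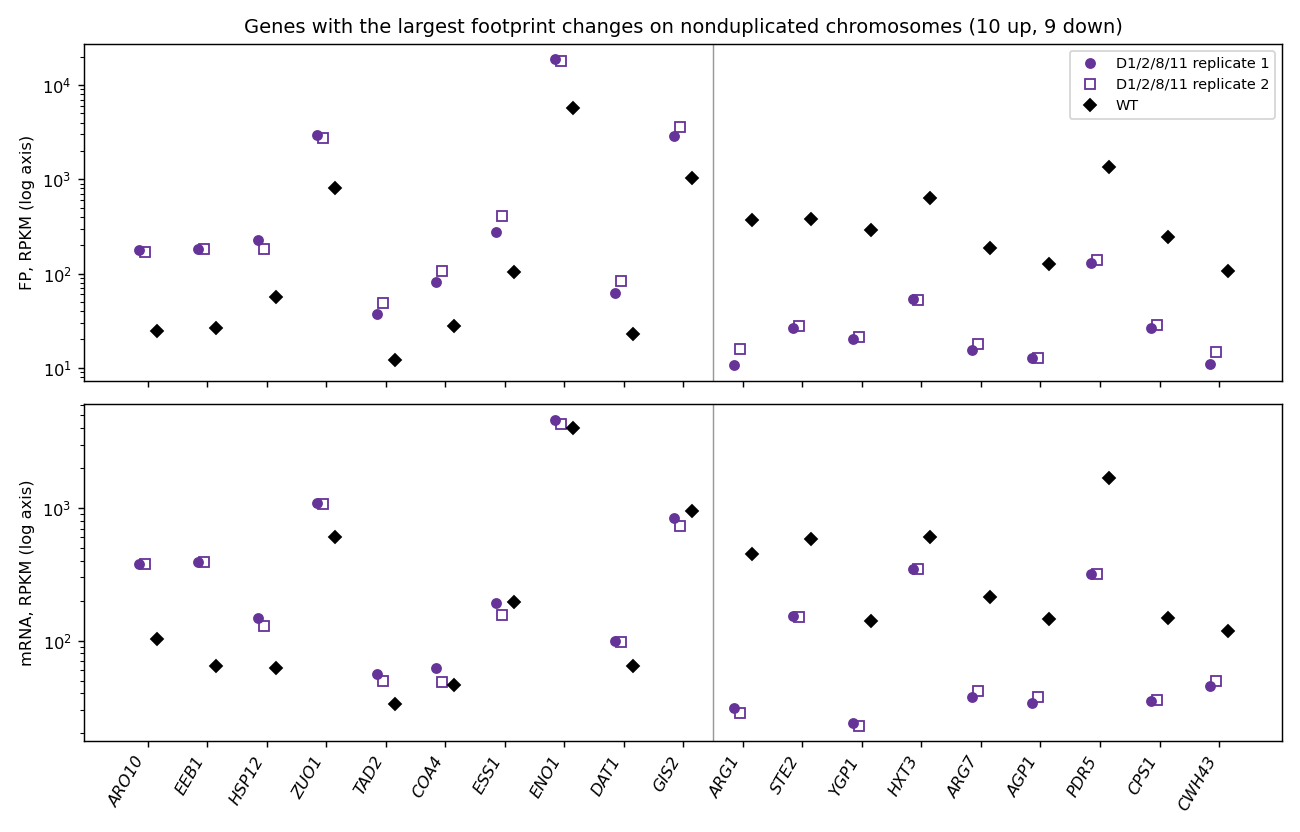
FP (upper panel) and mRNA (lower panel) levels in RPKM on log axes for the 10 genes with the largest increase and 9 of the 10 with the largest decrease in FP on nonduplicated chromosomes, with each D1/2/8/11 culture and WT as separate points. The D1/2/8/11 cultures lie close together for most genes. The WT of run 2 lies apart from both in FP for all 19, which follows from how these genes were chosen. ENO1, ESS1, COA4 and GIS2 have mRNA close to that of WT.

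The gene with the largest rise in FP was ARO10, the decarboxylase that acts after Aro9 on the route from aromatic amino acids to fusel alcohols. It had 179.7 and 168 RPKM in D1/2/8/11, 164 RPKM in D1/2/8, 18.2 and 18.9 RPKM in D1/8 and 24.6 RPKM in WT, a log2 change of 2.82 (SE 0.10, adjusted p = 4.3e-05). Its mRNA was 378 and 376 RPKM in D1/2/8/11 and 104 RPKM in WT, so FP changed more than mRNA and ribosome density rose by 0.96 (adjusted p = 0.0089). EEB1, an acyltransferase that makes fatty acid ethyl esters, had 181 RPKM of FP in both cultures of D1/2/8/11, 20.4 RPKM in D1/2/8, 10.9 and 11.7 RPKM in D1/8 and 26.2 RPKM in WT. Its change was 2.79 in FP and 2.60 in mRNA (389 RPKM in both cultures of D1/2/8/11 and 64.4 RPKM in WT). Unlike ARO10, EEB1 was no higher in D1/2/8 than in WT.

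HSP12, a small membrane-associated stress protein, had 227 and 184 RPKM in FP in D1/2/8/11 and 56.1 RPKM in WT (1.87, SE 0.19), and its mRNA rose by 1.14. ZUO1, the Hsp40 partner that recruits the ribosome-associated Hsp70 to nascent chains, had 2958 and 2749 RPKM in D1/2/8/11 and 805 RPKM in WT (1.83, SE 0.11), with an mRNA change of 0.84. TAD2, a subunit of the enzyme that makes inosine in tRNA anticodons, and COA4, an assembly factor of cytochrome oxidase, rose by 1.81 and 1.73 in FP. ESS1, a prolyl isomerase acting on RNA polymerase II, had 276 and 408 RPKM in D1/2/8/11 and 103 RPKM in WT, whereas its mRNA (191 and 156 RPKM in D1/2/8/11, 196 RPKM in WT) did not pass the test. The zinc-finger RNA-binding protein gene GIS2 was of the same kind, with an FP change of 1.65 and an mRNA change of -0.28 that was not called. COA4, ESS1 and GIS2 have short coding sequences, of 453, 513 and 462 bases, without a predicted hydrophobic segment. Of such nonduplicated ORFs between 400 and 700 bases, 25.8% were called higher in FP and 17.8% in mRNA. The part of length in these values was not tested. ENO1 (enolase) rose by 1.69 in FP, but it is nearly identical to ENO2 on duplicated chromosome VIII, and reads that match both copies make its value uncertain. DAT1, a binder of AT-rich DNA, rose by 1.66 (62.5 and 83.7 RPKM in D1/2/8/11, 22.9 RPKM in WT), but the WT of run 1 had 73.7 RPKM, and against it the change was -0.33. The same holds in part for other genes of this group. Against the WT of run 1 the FP changes of HSP12, COA4, ESS1 and GIS2 were 0.44, 0.45, 0.38 and 0.62 and none was called, and that library had 123, 54.7, 209 and 1704 RPKM. With D1/8 in place of WT, HSP12 (0.51), COA4 (0.21), ESS1 (0.66) and ENO1 (0.24) were not called. ARO10, EEB1, ZUO1 and TAD2 were called against the WT of run 1, with changes of 2.26, 1.51, 1.20 and 1.68.

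ARG1 (argininosuccinate synthetase) had the largest fall in FP over 10 RPKM, with 10.6 and 15.9 RPKM in D1/2/8/11 and 372 RPKM in WT, a change of -4.84 (SE 0.26, adjusted p = 6.6e-05), and its mRNA was 31.0 and 28.3 RPKM in D1/2/8/11 and 449 RPKM in WT (-3.92). ARG7, an acetyltransferase of the same pathway, had 15.5 and 17.9 RPKM in D1/2/8/11 and 188 RPKM in WT (-3.5). STE2, the receptor for α-factor, had 26.3 and 27.7 RPKM in D1/2/8/11 and 378 RPKM in WT (-3.81, SE 0.096). The secreted glycoprotein gene YGP1 changed by -3.8, with 20.1 and 21.3 RPKM in D1/2/8/11 and 288 RPKM in WT.

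HXT3, a low-affinity glucose transporter, was unusual in the size of its split between fractions. Its FP was 53.3 and 52.2 RPKM in D1/2/8/11 and 628 RPKM in WT (-3.57), while its mRNA was 348 and 345 RPKM in D1/2/8/11 and 605 RPKM in WT (-0.80), and its ribosome density fell by 2.77 (SE 0.14, adjusted p = 0.0043). AGP1 (amino acid permease), PDR5 (drug efflux pump), CPS1 (vacuolar carboxypeptidase) and CWH43 (GPI anchor remodelling) had FP changes of -3.33, -3.32, -3.17 and -3.08, all called. Their mRNA changes were smaller, at -2.02, -2.42, -2.07 and -1.32.

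In mRNA, the genes with the largest rise were YLR162W, EEB1, CAK1, PDH1 and ARO10. PDH1, which functions in propionate metabolism, had 241 and 224 RPKM of mRNA in D1/2/8/11 and 50.7 RPKM in WT (2.20, SE 0.084), but 14.1 and 13.3 RPKM of FP in D1/2/8/11 and 14.4 RPKM in WT. YLR162W had 51080 and 3448 RPKM of FP in the cultures of D1/2/8/11 and 6181 RPKM in WT, and this disagreement between cultures leaves its value uncertain. Among the 5 largest falls in mRNA were those of ARG1, PDR15, MFA1 and SIM1. PDR15, a relative of PDR5, had 13 and 12.3 RPKM of mRNA in D1/2/8/11 and 93.4 RPKM in WT, and its FP of 1.66 and 1.62 RPKM in D1/2/8/11 and 59.4 RPKM in WT gave a change of -5.18, on few reads. SIM1, a cell wall protein of the SUN family, had changes of -2.69 in mRNA and -2.17 in FP.

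FP and mRNA calls overlapped more among lower than among higher genes. Of the 894 ORFs called lower in FP, 444 (49.7%) were also called lower in mRNA, which is 58.1% of the 764 lower mRNAs. Of the 417 called higher in FP, 63 (15.1%) were also called higher in mRNA, or 17.3% of the 365 higher mRNAs. Ribosome density was called higher for 467 of 5040 ORFs (9.27%) and lower for 968 (19.2%). Without D1/2/8/11 replicate 1 the higher count was 765, and with all 9 libraries of run 2 in the fit it was 277. With only D1/2/8/11 and WT in the fit 641 were lower. By position, 9.17% of nonduplicated ORFs were higher and 19.4% lower in density, and 9.69% and 18.3% of duplicated ones. On the nonduplicated chromosomes 616 of the 894 lower FP ORFs (68.9%) and 181 of the 417 higher ones (43.4%) were also called in density in the same direction. Because FP enters both measures, such agreement is partly built in. Of the 375 nonduplicated ORFs called higher in density, 116 (30.9%) were called lower in mRNA.

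**Figure D3:**
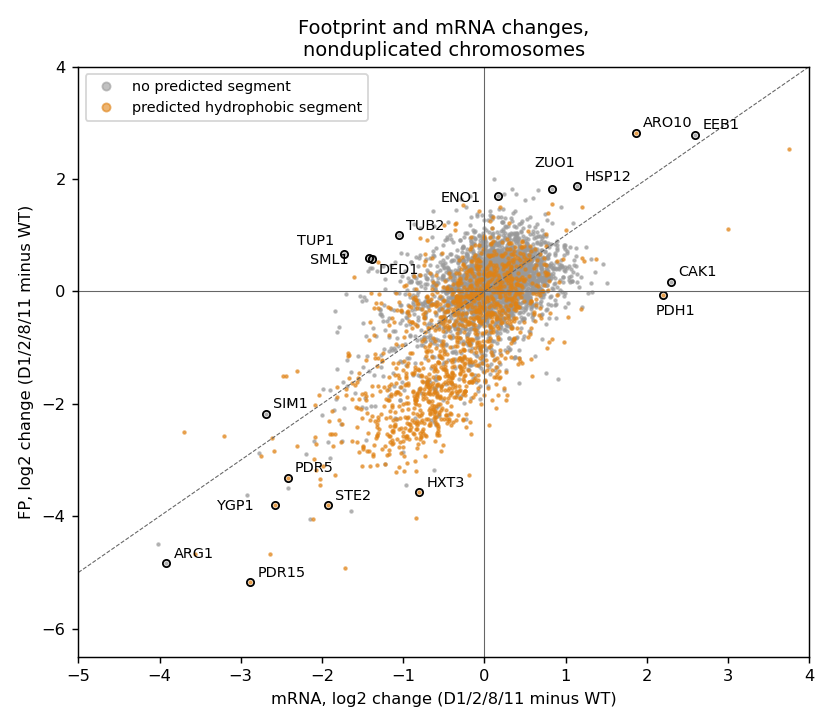
Log2 change in FP (vertical) against log2 change in mRNA (horizontal), D1/2/8/11 minus WT, for ORFs on nonduplicated chromosomes, with ORFs that encode a predicted hydrophobic segment in orange and the others in grey. The dashed line marks equal change in both, STE2, HXT3 and most orange points at the lower left fall below it, and TUP1, DED1, SML1 and TUB2 lie above it with lower mRNA and higher FP.

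The 5 highest in density were TUP1, NAF1, TUB2, DED1 and SML1, and each combined a lower mRNA with a footprint level above that of WT. TUP1, a general transcriptional corepressor, had 29.9 and 21.7 RPKM of mRNA in D1/2/8/11 and 84.4 RPKM in WT, but 209 and 202 RPKM of FP in D1/2/8/11 and 129.7 RPKM in WT. Its density rose by 2.39 (SE 0.23, adjusted p = 0.0043). TUB2 (β-tubulin) had 160.1 and 136 RPKM of mRNA in D1/2/8/11 and 307 RPKM in WT, and 773 and 901 RPKM of FP in D1/2/8/11 and 418 RPKM in WT (density 2.05). NAF1, an assembly factor of box H/ACA snoRNPs, and DED1, an RNA helicase of translation initiation, changed by 2.07 and 2.01 in density. For DED1 and for SML1, the inhibitor of ribonucleotide reductase (density 1.97), the FP change itself of 0.59 and 0.58 was not called. Lowest in density were HXT3, YPF1, PDH1, QDR3 and CAK1, of which HXT3, YPF1 and QDR3 had less FP and PDH1 and CAK1 more mRNA than WT.

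Lower FP went with predicted membrane and secretory ORFs. A hydrophobic segment (Kyte-Doolittle hydropathy averaging 1.6 or more over some stretch of 19 residues, or 2 or more over 11 residues within the first 35) was predicted for 1828 of 5620 nuclear ORFs. Among nonduplicated ORFs with such a segment, 627 of 1284 (48.8%) were called lower in FP and 52 (4.05%) higher. Among those without it, 264 of 2769 (9.53%) were lower and 356 (12.9%) higher. In mRNA, 450 of 1426 (31.6%) with a segment and 289 of 2911 (9.93%) without one were lower, and 57 (4%) and 281 (9.65%) were higher. In density, 515 (40.1%) with a segment and 278 (10%) without one were lower, and 63 (4.91%) and 304 (11%) were higher. On the duplicated chromosomes, ORFs with a segment had a median change of 0.10 in FP and 0.58 in mRNA, and ORFs without one 1.12 in FP and 1.09 in mRNA, so that FP of ORFs with a segment stood near the WT level in spite of the second copy. Coding length moved with these values too. Without a segment, the FP median was 0.48 for coding sequences of up to 400 bases and -0.09 for those over 2500, and with a segment it was lowest, at -1.47, between 1500 and 2500 bases. Both libraries of a culture came from 1 lysate that was cleared by centrifugation, and the recovery of membrane-bound RNA in it was not measured, so its part in these values was not tested.

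Against this background, the genes of the proteasome were among the groups with higher FP and none lower. Of the 20S subunits on nonduplicated chromosomes, 9 of 12 rose in FP and 0 fell (median 0.79), and 3 of 12 rose in mRNA (median 0.49). Of the 19S subunits, 6 of 15 rose in FP (median 0.55) and 9 of 15 in mRNA (median 0.64), with 0 lower in either. Over all nonduplicated ORFs the FP median was 0.00, and 10.2% were called higher in FP and 8.05% in mRNA. A predicted segment is encoded by 0 of 14 genes of the 20S list and 2 of 18 of the 19S list. Among nonduplicated ORFs without one, 12.9% were higher in FP. Of those with 400 to 700 bases this share was 25.8% (median 0.38), and of those with 700 to 1000 bases 17.3% (median 0.28). PUP3, a subunit of the 20S inner ring, had 754 and 793 RPKM of FP in D1/2/8/11 and 345 RPKM in WT (1.17, SE 0.096), and its mRNA change of 0.29 was not called. PRE5 and PUP1 rose by 1.02 and 0.96 in FP, again with mRNA changes (0.09 and 0.26) that were not called, and their density rose by 0.94 and 0.70. PRE1 was higher in both fractions, with 547 and 616 RPKM of FP and 400.4 and 396 RPKM of mRNA in D1/2/8/11, and 329 RPKM of FP and 214 RPKM of mRNA in WT.

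In the 19S particle, RPN11, the deubiquitinase of the lid, had 369.5 and 399 RPKM of FP in D1/2/8/11 and 189 RPKM in WT (1.02, SE 0.093). RPN6 rose by 0.85 in FP and 0.70 in mRNA and RPN12 by 0.66 and 0.87, whereas RPN9, RPN3, RPN5 and RPN7 rose in mRNA by 0.64 to 0.92 with FP changes of 0.19 to 0.48 that were not called. On the duplicated chromosomes, PRE7 (20S) and RPN10 (a ubiquitin receptor) were the highest members of their groups, 0.73 and 0.75 above doubling in FP. Of the regulators and assembly factors, 5 of 10 rose and 0 fell in FP, among them the 19S assembly chaperone NAS6 (0.98) and RPN4 (0.79, SE 0.095; 75.0 and 75.6 RPKM in D1/2/8/11, 43.4 RPKM in WT), the transcription factor of proteasome genes. Against D1/8 the FP change of RPN4 was 0.28 and not called. RPN4 mRNA, at 108 and 98.3 RPKM in D1/2/8/11 and 71.7 RPKM in WT, was not called. The FP of these groups was less far from D1/8 than from WT: with D1/8 in place of WT, 3 of 12 20S subunits, 1 of 15 19S subunits and 1 of 10 regulators were called higher in FP, and 0, 2 and 0 in mRNA. Centring on ORFs without a segment leaves 6, 3 and 3 higher in FP. With the WT of run 1, 9, 9 and 5 were higher in FP but 9, 13 and 6 in mRNA (medians 0.92, 0.85 and 0.97), so the smaller mRNA change of the 20S subunits rests on the WT of run 2.

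Rpn4 binds the proteasome-associated control element (PACE), and the letters GGTGGCAAA were searched on both strands of the 300 bases before each coding start in SacCer3. They occur before 68 of 5619 nuclear ORFs (1.21%) and before 27 of 32 genes of 20S and 19S subunits (84.4%). Windows of 30 bases on the strand of the gene are shown for 3 subunits called higher in both fractions, PRE1 (chrV:177683-177712, plus strand), RPN6 (chrIV:286789-286818, minus strand) and RPN12 (chrVI:252398-252427, plus strand), and for PRE8 (chrXIII:86840-86869, minus strand), which was called in neither. Capitals mark the element, which RPN12 carries on the opposite strand.
PRE1: aaatctttacGGTGGCAAAaaataaagaaa
RPN6: tggttccaagGGTGGCAAAtgttggtagaa
RPN12: ctacacattaTTTGCCACCcattgaaattg
PRE8: agcttattaaGGTGGCAAAattgtccccgg
The element begins 142, 113, 97 and 120 bases before the coding start of these genes, in that order. PRE8 had 359.6 and 333 RPKM of FP in D1/2/8/11 and 267 RPKM in WT (0.38, not called), so the element was also present before a gene at the low end of the group. The 23 measured nonduplicated subunits with the element had median changes of 0.62 in FP and 0.56 in mRNA, and the 4 without it 0.85 and 0.44. The part of the element in these values was not tested.

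**Figure D4:**
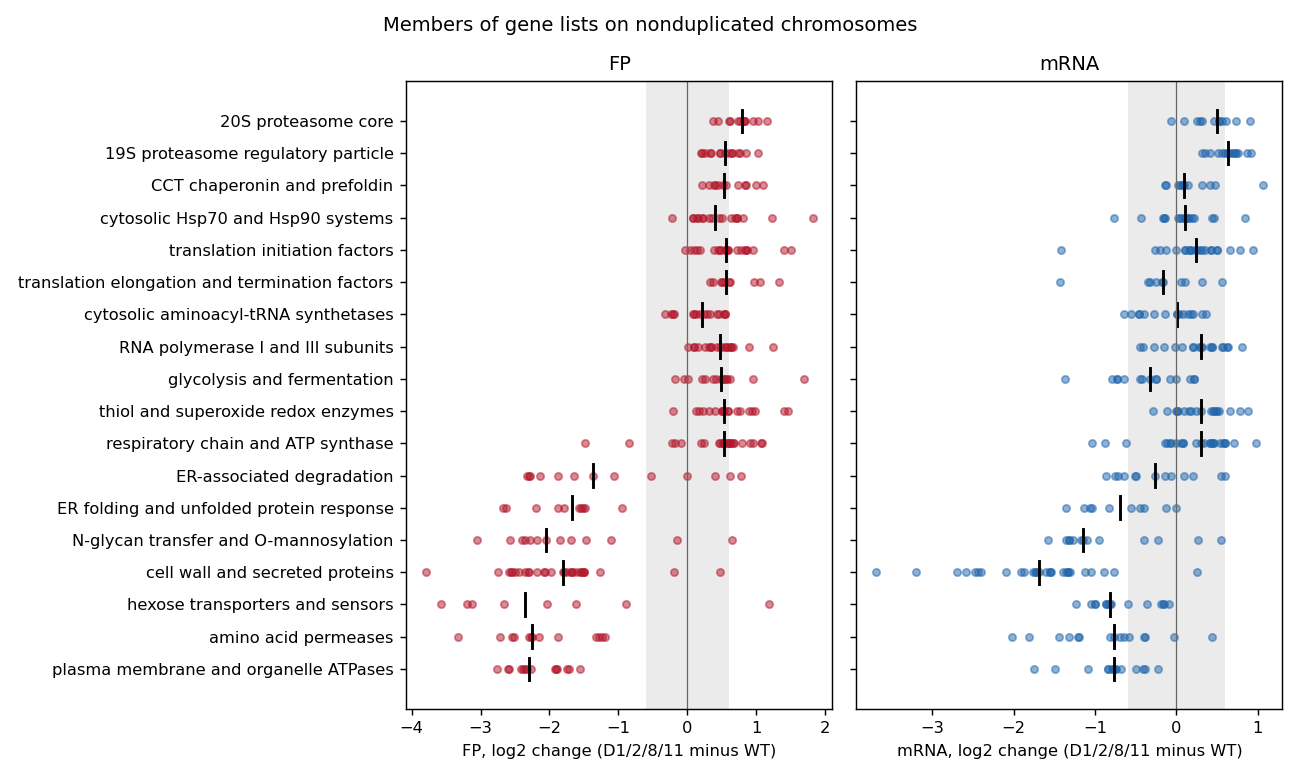
Log2 change (D1/2/8/11 minus WT) of the measured members of 18 gene lists on nonduplicated chromosomes, in FP (left) and mRNA (right), with a point for each gene, a bar at the median and grey shading over changes under 1.5-fold. Proteasome, chaperone and translation lists lie to the right of 0 in FP, and lists of the ER, the cell wall and membrane transport lie to the left, mostly with smaller shifts in mRNA.

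Part of the cytosolic folding and translation factors had higher FP than the WT of run 2, and few were called in mRNA. In the CCT chaperonin and prefoldin, which fold actin and tubulin, 4 of 12 rose in FP and 0 fell, led by CCT6 with 437 and 551 RPKM in D1/2/8/11 and 229 RPKM in WT (1.10, SE 0.14), while its mRNA was at -0.15. CCT6 was called neither against the WT of run 1 (0.23) nor against D1/8 (0.56). Of the Hsp70 and Hsp90 systems 7 of 18 rose in FP and 0 fell, including ZUO1 (1.83), the Hsp90 regulator HCH1 (1.23) and the ribosome-bound SSB1 and SSB2 (0.72 and 0.81, nearly identical genes). Of the initiation factors, 8 of 22 rose and 0 fell in FP. SUI1 (eIF1, start codon selection) had 1689 and 1769 RPKM in D1/2/8/11 and 609 RPKM in WT (1.51, SE 0.14), and the cap-binding protein gene CDC33 and TIF5 (eIF5) rose by 0.96 and 0.85. Of the elongation and termination factors, 4 of 10 rose in FP, 0 in mRNA and 7 in density, with HYP2 (eIF5A) at 6707 and 6470 RPKM in D1/2/8/11 and 3368 RPKM in WT. None of 16 aminoacyl-tRNA synthetases was called in FP in either direction (range -0.32 to 0.55). A predicted segment is encoded by 2 of 14 genes of the CCT and prefoldin list and 1 of 25 of the Hsp70 and Hsp90 list. For initiation factors this holds for 4 of 26, and for elongation and termination factors for 1 of 14. Among nonduplicated ORFs without a segment, 12.9% were higher and 9.53% lower in FP. Of RNA polymerase I and III subunits, 2 of 19 rose, close to the 10.2% of all nonduplicated ORFs, and 9 did so with D1/8 in place of WT. The counts of higher FP depend on the comparison: with the WT of run 1, D1/8 and the other centring, in that order, they were 1, 1 and 2 of 12 for CCT and prefoldin, 4, 3 and 3 of 18 for Hsp70 and Hsp90 and 2, 4 and 3 of 10 for elongation and termination.

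Ribosome biogenesis genes, a published list tabulated by the study, had 36 of 145 members called higher and 0 lower in FP (median 0.47), and 26 of 146 higher and 1 lower in mRNA (median 0.32). Over all nonduplicated ORFs tested, 10.2% were higher and 21.9% lower in FP, and 8.05% and 16.8% in mRNA. Of all 195 listed genes 26 encode a predicted segment. Among nonduplicated ORFs without one, 12.9% were higher and 9.53% lower in FP. GAR1, a core protein of H/ACA snoRNPs on duplicated chromosome VIII, was the highest member of the list over 10 RPKM, with 1402 and 2098 RPKM of FP in D1/2/8/11 and 345 RPKM in WT, 1.31 above doubling. At the low end, MTG1, a mitochondrial ribosome GTPase, had 15.8 and 12.2 RPKM in D1/2/8/11 and 22.6 RPKM in WT, which was not called. With the other centring 20 were higher and 2 lower in FP, with the WT of run 1 19 and 1, and with D1/8 in place of WT 51 and 0. The letters GATGAG (the PAC element) stood within 300 bases before 71.3% of these genes and 18.7% of all nuclear ORFs, and before 28.7% of the nonduplicated ORFs called higher in FP and 19.2% of those tested. This is a description of the sequence only.

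All 10 measured members of the ER folding list on nonduplicated chromosomes fell (median -1.68), and 5 of 10 fell in mRNA. KAR2, the Hsp70 of the ER lumen, had 149 and 194 RPKM of FP in D1/2/8/11, 194 RPKM in D1/2/8, 788 and 753 RPKM in D1/8 and 588 RPKM in WT (-1.79, SE 0.16), and its mRNA fell by 1.07. ERO1, which supplies oxidizing power for disulfide bonds, fell by 2.19 in FP with an mRNA change of -0.45 that was not called, and PDI1, its partner isomerase, fell by 1.48 in FP and 1.36 in mRNA. EPS1 and EUG1, relatives of PDI1, were the lowest at -2.68 and -2.64. Of N-glycan transfer and O-mannosylation genes, 11 of 13 fell in FP and 9 in mRNA, with the mannosyltransferase gene PMT5 at -3.06 and the oligosaccharyltransferase subunit STT3 at -2.05. The small subunit OST4 was not called, at 283 and 164 RPKM in D1/2/8/11 and 137 RPKM in WT. Of ER-associated degradation genes 8 of 13 fell and 1, the ubiquitin-conjugating enzyme UBC7 (0.78), rose in FP, and the falls included the mannosidase MNS1 (-2.33) and the ligase genes HRD1 (-2.30) and SSM4 (-2.28). A predicted segment is encoded by 11 of 13 genes of the ER folding list, 14 of 14 of the glycan list and 12 of 16 of the degradation list. Among all nonduplicated ORFs with a segment, 48.8% were lower in FP and 31.6% in mRNA. In ER translocation 3 of 11 fell in FP, near the 21.9% of all nonduplicated ORFs, among them SEC63 at -2.63 and SEC61 at -1.42, while the signal recognition particle subunits SRP54, SRP68 and SRP72 lay between -0.08 and 0.04 in FP and were not called.

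SEC61, the channel subunit of the translocon, went against the general pattern of smaller shifts in mRNA. Its mRNA was 46.6 and 45.8 RPKM in D1/2/8/11 and 230 RPKM in WT (-2.31, SE 0.093), its FP was 97.0 and 118 RPKM in D1/2/8/11 and 286 RPKM in WT, and its density rose by 0.89. Cell wall and secreted proteins were low in both fractions as well. Of these, 27 of 29 fell in FP (median -1.80) and 28 of 29 in mRNA (median -1.69), and density was called lower for 7 and higher for 2. A predicted segment is encoded by 29 of the 37 genes of this list found in the data. Among all nonduplicated ORFs with a segment, 48.8% were lower in FP and 31.6% in mRNA. GAS1, a glucan-remodelling enzyme, had 259.9 and 311 RPKM of FP in D1/2/8/11 and 1197 RPKM in WT, and 349 and 353 RPKM of mRNA in D1/2/8/11 and 1031 RPKM in WT. CCW12, the most abundant mRNA of the list, was called in neither fraction (0.47 in FP, 0.26 in mRNA), and CIS3 fell in mRNA only (-1.33).

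Transporters were lower mainly in FP. All 14 nonduplicated membrane ATPases fell in FP (median -2.30), 10 of 14 fell in mRNA (median -0.77) and 13 of 14 in density. PMA1, the plasma membrane proton pump, had 672 and 827 RPKM of FP and 1300 and 1382 RPKM of mRNA in D1/2/8/11, and 3825 RPKM of FP and 4525 RPKM of mRNA in WT. The vacuolar calcium pump PMC1 fell by 2.60 in FP and 0.84 in mRNA. Of the amino acid permeases 12 of 13 fell in FP and 10 of 15 in mRNA, and of the hexose transporters 6 of 8 fell and 1 (HXT8, on few reads) rose in FP. With the WT of run 1 the mRNA of 6 of 15 permeases was lower and 1 higher. These lists consist of ORFs with a predicted segment, a class of which 48.8% were lower in FP and 31.6% in mRNA. HXT6 and HXT7, and ENA1, ENA2 and ENA5, are nearly identical genes whose reads could be shared. In ergosterol synthesis 9 of 20 fell in FP, among them the ER membrane enzymes ERG4 (-2.69) and the reductases HMG1 (-2.66) and HMG2 (-2.25), while the mevalonate enzymes ERG10, ERG12, ERG13 and ERG20 lay between -0.06 and 0.35 and were not called. Of all 24 listed ergosterol genes 15 encode a predicted segment. With D1/8 in place of WT, 10 of 10 ER folding genes, 11 of 13 glycan genes, 28 of 29 cell wall genes, 14 of 14 ATPases and 8 of 20 ergosterol genes were called lower in FP. The medians of these 5 lists in FP were -1.59, -1.74, -1.70, -2.15 and -0.13 in D1/2/8 and between -0.03 and 0.20 in the 2 cultures of D1/8.

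Amino acid metabolism changed in several branches. Of the 12 nonduplicated arginine genes, a list drawn up after ARG1 and ARG7 had been seen, 9 fell in FP (median -2.92) and 9 in mRNA (median -1.25), and ARG82, an inositol polyphosphate kinase, rose in FP. ARG3 had 1.47 and 1.71 RPKM of FP and 4.29 and 3.53 RPKM of mRNA in D1/2/8/11, and 35.9 RPKM of FP and 63.1 RPKM of mRNA in WT. These genes were low in the other 2 aneuploids as well: the FP median of the list was -2.83 in D1/2/8 and -2.23 and -2.14 in D1/8. With D1/8 in place of WT, 6 of 12 were called lower in FP and 0 in mRNA, and with the WT of run 1, 10 of 12 were lower in FP and 7 in mRNA. Of the other amino acid synthesis genes on nonduplicated chromosomes, 13 of 32 fell and 3 rose in FP, and 21 fell and 1 rose in mRNA. With D1/8 in place of WT 7 were lower in FP and 13 in mRNA. Over all nonduplicated ORFs tested against WT, 21.9% were lower and 10.2% higher in FP, and 16.8% and 8.05% in mRNA. The 3 of 32 higher in FP were therefore near the share of all ORFs. LEU4 (first step of leucine synthesis) had 77.9 and 76.1 RPKM of FP in D1/2/8/11 and 495 RPKM in WT (-2.69), and ILV3 fell by 1.92 in FP and 1.82 in mRNA.

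GCN4, the transcriptional activator of amino acid synthesis, had 47.5 and 41.5 RPKM of FP in D1/2/8/11, 43.5 RPKM in D1/2/8, 57.0 and 49.3 RPKM in D1/8 and 147 RPKM in WT (-1.72, SE 0.14, adjusted p = 0.00016). Its mRNA was 647 and 623 RPKM in D1/2/8/11 and 981 RPKM in WT, and its density fell by 1.10 (adjusted p = 0.036). The 6 letters TGACTC, the core of the Gcn4 binding site, were found on either strand of the 300 bases before 10 of 13 arginine genes (76.9%), 25 of 38 other amino acid synthesis genes (65.8%) and 8.03% of all nuclear ORFs. Windows are shown for the arginine genes whose falls are described above, ARG1 (chrXV:218925-218954, plus strand) and ARG7 (chrXIII:396514-396543, minus strand), and for HIS4 (chrIII:68515-68544, minus strand), which has 3 matches and of which the nearest to the gene is shown. Capitals mark the match.
ARG1: tgccgtatggaaGAGTCAtttaaaggcagg
ARG7: ggacaggtaggaTGACTCactgcgtaattc
HIS4: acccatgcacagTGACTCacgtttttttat
HIS4 had 171 and 157 RPKM of FP in D1/2/8/11 and 357 RPKM in WT (-1.12, SE 0.12), a smaller change than that of the arginine genes. The letters were present before 12.5% of all nonduplicated ORFs called lower in FP and before 8.31% of those tested, and their part in any of these values was not tested.

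Genes for the breakdown of aromatic and branched-chain amino acids moved in both directions. Of 10 listed on nonduplicated chromosomes, 5 rose in FP (ARO10, EEB1, BAT2, PDC5 and SFA1) and 1, ADH4, fell, and with D1/8 in place of WT 3 were higher and 1 lower. Over all nonduplicated ORFs tested against WT, 10.2% were higher and 21.9% lower in FP. The list holds EEB1 although its product makes fatty acid ethyl esters and does not break down amino acids. BAT2, the cytosolic branched-chain aminotransferase, had 682 and 681 RPKM of FP in D1/2/8/11 and 335 RPKM in WT (1.02). ARO8, the housekeeping aromatic aminotransferase, had 369 and 368 RPKM of FP in D1/2/8/11 and 510.3 RPKM in WT, which was not called, and its mRNA fell by 1.18.

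In glycolysis and fermentation, 2 of 15 nonduplicated genes rose in FP (ENO1 and PDC5), 5 fell in mRNA and 7 rose in density. Over all nonduplicated ORFs tested, 10.2% were higher and 21.9% lower in FP, and 8.05% and 16.8% in mRNA. In density these shares were 9.17% and 19.4%. PDC5, a minor pyruvate decarboxylase, had 538 and 493 RPKM of FP but 49.6 and 48.2 RPKM of mRNA in D1/2/8/11, and 266 RPKM of FP and 85.0 RPKM of mRNA in WT. The direction of the mRNA change of this list rests on the WT library: its median was -0.33 against the WT of run 2 and 0.25 against that of run 1, with which 6 were called higher and 0 lower, while with D1/8 in place of WT 12 of 15 were lower. Several of these genes have near-identical paralogs. Of the nuclear-encoded respiratory genes, 8 of 25 rose and 2 fell in FP (median 0.53), with the cytochrome oxidase subunit COX9 at 0.95 and ATP2 at -1.49. In mRNA 2 of 25 rose and 3 fell, not above the shares of all nonduplicated ORFs. With the WT of run 1, D1/8 and the other centring, 6, 2 and 3 were higher in FP, and with the WT of run 1, 8 were higher in mRNA. Among thiol and superoxide enzymes 6 of 19 rose and 0 fell in FP and 3 rose in mRNA, whereas 2 were higher in FP against D1/8 and 11 in mRNA against the WT of run 1. SOD1 (Cu/Zn superoxide dismutase) had 3671 and 4192 RPKM of FP in D1/2/8/11 and 1426 RPKM in WT (1.46, SE 0.13) with mRNA not called (0.18), but it was also high in D1/8, at 3287 and 2983 RPKM. The peroxiredoxin gene TSA1 rose by 1.40 in FP and 0.78 in mRNA. Of the trehalose and glycogen genes 3 of 12 fell in FP, near the 21.9% of all nonduplicated ORFs, and 8 were lower against D1/8. PGM2, at -0.66, was at 0.14 against the WT of run 1.

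The published stress lists differed from each other. Of the genes induced in the environmental stress response (ESR), 21 of 210 on nonduplicated chromosomes were called higher in FP and 56 lower (10.2% and 21.9% of all ORFs tested), with a median of -0.19, and in mRNA 14 of 215 were higher and 46 lower. Of the heat shock response genes, 6 of 65 were higher and 21 lower in FP (median -0.23). Against the WT of run 1 the medians of both lists were above 0, at 0.05 and 0.04, with 29 and 8 higher and 42 and 16 lower, and against D1/8 they were -0.43 and -0.51. Of the members over 10 RPKM, YGP1 was the lowest in both lists and ARO9 the highest. Of the ESR-repressed genes, 92 of 371 were higher and 24 lower in FP (median 0.46), and 42 of 383 higher and 25 lower in mRNA (median 0.21), so that in FP more were higher and fewer lower than over all nonduplicated ORFs. Of all 579 listed ESR-repressed genes, however, only 83 encode a predicted segment. Among nonduplicated ORFs without one, 12.9% were higher and 9.53% lower in FP. In mRNA, 8.05% of all nonduplicated ORFs were higher and 16.8% lower. With the other centring 53 ESR-repressed genes were higher in FP and with the WT of run 1, 54, while in mRNA these gave 23 and 95. Over 10 RPKM, GAR1 was the highest of these and GAS3, a cell wall protein gene, the lowest (-2.55). Of the disaggregase and small heat shock proteins on nonduplicated chromosomes, HSP12 rose and HSP30 fell in FP, and the disaggregase HSP104 was at -0.04. These study-tabulated lists share genes with the groups above.

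Among members over 10 RPKM, the highest of many lists lay on the duplicated chromosomes, where a change against WT includes the second copy. In FP these were the proteasome maturation factor UMP1 (1.6), the initiation factor FUN12 (1.53), the release factor SUP45 (1.38), the prolyl-tRNA synthetase YHR020W (1.54) and the RNA polymerase III subunit RPC37 (1.73). In metabolism they were the lanosterol synthase ERG7 (1.44), the trehalose synthase TPS1 (1.27), the ATP synthase subunit ATP7 (1.65), the cystathionine lyase CYS3 (1.66) and the homoserine kinase THR1 (1.51). SRP21 (0.97), NPL4 (1.04), CWP1 (0.86) and CTR2 (0.90) were the highest of the ER translocation, ER-associated degradation, cell wall and metal uptake lists, near the level of a second copy. HXT1, TAT1 and DRS2, the highest of the hexose transporters, amino acid permeases and ATPases, stood at -1.77, -0.58 and -1.17 in spite of a second copy, and SIL1 was the highest ER folding gene at -0.95.

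Of the lowest members over 10 RPKM, several were not called in FP. They were RPN14 (-0.21), CCT3 (0.22), SSE2 (-0.41), HSP42 (-0.46), GCD7 (-0.03), YEF3 (0.34), KRS1 (-0.32), PFK2 (-0.17) and the glutathione reductase GLR1 (-0.21). PMT4 (-2.36) and the siderophore transporter SIT1 (-2.90) fell and were the lowest over 10 RPKM in the glycan and metal uptake lists, where PMT5 and ENB1 were lower on fewer reads. In sulfate assimilation and methionine synthesis 1 of 16 nonduplicated genes rose and 4 fell in FP, near the 10.2% and 21.9% of all nonduplicated ORFs, and 1 rose and 7 fell in mRNA. The methionine synthase MET6 was the lowest over 10 RPKM in FP, and against D1/8 it was at -0.12 and 1 of the list was lower in mRNA. Of 6 nonduplicated histone genes 1 rose in FP and 0 were called in mRNA, whereas against the WT of run 1 these counts were 0 and 4. HTA2 on chromosome II (1.49, second copy included) and HTA1 (-0.59, not called) were the extremes, and they encode nearly identical H2A proteins whose reads could be shared.

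Mating genes were low in D1/2/8/11 although it is MATa, in a list drawn up after STE2 and MFA1 had been seen. Of 10 on nonduplicated chromosomes, 9 fell in FP (median -2.81) and 10 in mRNA (median -1.89). Over all nonduplicated ORFs tested, 21.9% were lower in FP and 16.8% in mRNA. Of all 11 listed mating genes 7 encode a predicted segment. Among nonduplicated ORFs with one, 48.8% were lower in FP and 31.6% in mRNA. MFA1, which encodes a-factor, had 34.6 and 40.2 RPKM of mRNA in D1/2/8/11 and 256 RPKM in WT (-2.78, SE 0.094). BAR1, the protease that degrades α-factor, had 7.24 and 6.90 RPKM of FP in D1/2/8/11 and 117 RPKM in WT (-4.04), and the agglutinin gene AGA1 had 0.99 and 1.25 RPKM in D1/2/8/11 and 28.3 RPKM in WT. The FP median of this list was -1.54 in D1/2/8 and -1.38 and -1.43 in D1/8, and with D1/8 in place of WT 5 of 10 were called lower in each fraction. With that comparison the mRNA of AGA2 was at 0.0042, in place of -1.23.

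Drug pump and metal uptake genes were also grouped after their values were seen. Of 10 nonduplicated targets of the regulators Pdr1 and Pdr3, 6 fell and 1 (ICT1) rose in FP, and 7 of 12 fell in mRNA. Of all 13 listed targets 11 encode a predicted segment, and 48.8% of the nonduplicated ORFs with one were lower in FP. PDR5 had 130 and 140.1 RPKM of FP in D1/2/8/11 and 1346 RPKM in WT, and SNQ2 had 13.9 and 14.1 RPKM in D1/2/8/11, 23.6 RPKM in D1/2/8, 133 and 123 RPKM in D1/8 and 110 RPKM in WT. PDR3 itself, on duplicated chromosome II, was below the WT level in both fractions (-0.89 in FP, -0.93 in mRNA). Of 13 nonduplicated iron and metal uptake genes 11 fell in FP and 10 in mRNA. Of all 17 listed metal uptake genes 16 encode a predicted segment. Among nonduplicated ORFs with one, 48.8% were lower in FP and 31.6% in mRNA. FET3, the copper oxidase of high-affinity iron uptake, had 54.9 and 77.9 RPKM of FP and 71.6 and 74.3 RPKM of mRNA in D1/2/8/11, and 399 RPKM of FP and 449 RPKM of mRNA in WT. Against the WT of run 1, however, the metal uptake list had 2 of 11 higher and 5 lower in FP and 4 of 13 higher and 3 lower in mRNA.

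The right end of chromosome III, which is not duplicated, held a run of 9 neighbouring ORFs with low mRNA. It was found by scanning all chromosomes for runs of at least 4 neighbours with WT mRNA above 1 RPKM in which both D1/2/8/11 cultures lay below 50% of the WT level, and it was the single such run. It spans GIT1 to AAD3 (chrIII:297049-314981), and no measured ORF lies beyond it. GIT1, a transporter of glycerophosphoinositol, had 0.15 and 0.189 RPKM of mRNA in D1/2/8/11, 6.00 RPKM in D1/2/8, 4.81 and 4.5 RPKM in D1/8 and 6.45 RPKM in WT. RDS1, a zinc cluster transcription factor, had 0.373 and 0.609 RPKM in D1/2/8/11, 17.0 RPKM in D1/2/8, 4.56 and 4.47 RPKM in D1/8 and 22.7 RPKM in WT (-5.57, SE 0.28, adjusted p = 1.8e-07). YCR099C, YCR101C and EMA35 had 1.43 to 1.7 RPKM in D1/2/8/11 and 18.6 to 29.6 RPKM in WT, and AAD3, which has relatives at other chromosome ends, had 3.67 and 3.91 RPKM in D1/2/8/11 and 25.5 RPKM in WT. ADH7 was listed at 0 (under 4 reads) in both D1/2/8/11 cultures and had 1.92 RPKM in WT. Outside the run, HMRA2, the nearest measured ORF on its centromere side, had 46.0 and 51.1 RPKM in D1/2/8/11 and 31.5 RPKM in WT. Most of these ORFs have few or no footprints in any library, and DNA copy number was not measured in these data.

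**Figure D5:**
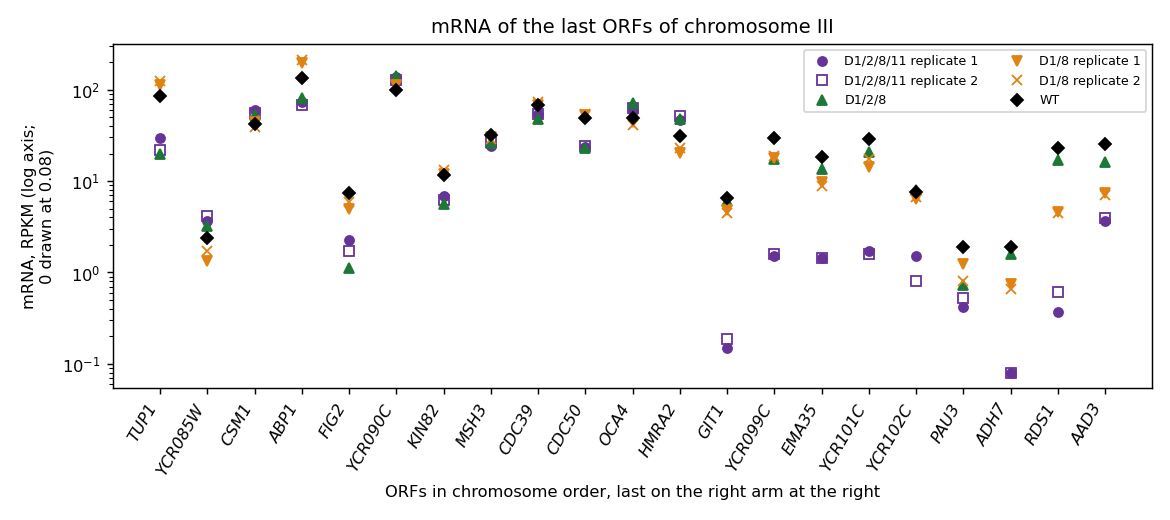
mRNA level in RPKM (log axis, 0 drawn at 0.08) of the last ORFs of the right arm of chromosome III in order along the chromosome, for both D1/2/8/11 cultures, D1/2/8, both D1/8 cultures and WT. From GIT1 onward the D1/2/8/11 cultures lie below each other library drawn, whereas at HMRA2, on the centromere side of GIT1, they lie above WT.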

How the data were processed

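FP and total mRNA libraries of 2 cultures of D1/2/8/11 and 1 of WT, all of run 2, were compared. The authors trimmed reads with Cutadapt, aligned them with Bowtie without mismatches to SacCer3 mRNAs, and deposited RPKM per ORF, in which aneuploid libraries had been scaled to WT by the median ratio over nonduplicated chromosomes. Tool versions and the handling of reads that match several ORFs are not given in the sources used here, and 247 of 248 spliced ORFs were at 0 in the 6 libraries. Of 6061 ORFs, 28 mitochondrial ones were left out.

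Log2 RPKM of ORFs above 0 in all libraries compared was centred on nonduplicated chromosomes and fitted with limma 3.58.1 in R 4.3.3 (trended eBayes, Benjamini-Hochberg adjustment over all nuclear ORFs, no pseudocount), with 1 group per strain over the 6 libraries of D1/2/8/11, D1/8, D1/2/8 and WT in each fraction, so that the lone WT is assumed to vary like strains with 2 cultures. Ribosome density is log2 FP minus log2 mRNA. The sample labels carry replicate numbers only, and the paper describes the 2 cultures each of D1/2/8/11 and D1/8 as biological replicates. The p-values measure the spread between these cultures only. Read totals were recovered as whole multiples of the lowest RPKM times coding length (92.3% to 98.9% of low values within 0.05 of a whole read) and describe counting error only. A value of 0 marks under 4 reads.

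Named genes were, among ORFs with at least 10 RPKM in the 3 libraries, the 10 highest and 10 lowest called in FP, the 5 and 5 in mRNA, relative to doubling and in density, the extremes of each list, and the strain checks, and 1 gene that this rule names is not reported here. Other members are given as examples chosen after their values were seen. The members, the 31 gene lists and the tests were chosen with earlier results of these data known, and 5 lists (arginine, other amino acid synthesis, mating, Pdr targets, iron uptake) were added after values were seen. Stress and ribosome biogenesis lists are those tabulated with the study. Alternatives were a filter at 10 RPKM, pseudocounts of 0.5 and 1, a 2-fold threshold, other sets of libraries, the WT of run 1, a replicate block and leaving out each culture. Centring on ORFs without a hydrophobic segment and D1/8 as the comparison were chosen after seeing the data.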

Additional observations from a re-analysis of the deposited data

How the results depend on the processing

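Counts of calls kept within 1.5 times of the reported ones under the other sets of libraries, the pseudocounts and the WT of run 1, except where named here. A minimum of 10 RPKM gave 775 FP calls in place of 1311 and 926 density calls in place of 1435, with fewer ORFs tested. A 2-fold threshold gave 762 FP, 388 mRNA and 650 density calls, and 180 FP and 102 mRNA calls relative to doubling. The median change of the duplicated chromosomes in FP was 0.9239 with the minimum of 10 RPKM, 0.9387 and 0.9049 with pseudocounts of 0.5 and 1, 0.9371 with the WT of run 1 and 0.8127 with centring on ORFs without a hydrophobic segment. In mRNA it was 0.9256, 0.9086, 0.8871, 0.9641 and 0.8287 under the same settings. Leaving out each culture in turn gave 1265 to 1651 FP calls, 1126 to 1300 mRNA calls, 999 to 2002 density calls, 300 to 375 FP and 283 to 315 mRNA calls relative to doubling, and medians of 0.9543 to 0.9762 in FP and 0.9431 to 0.9439 in mRNA. With only D1/2/8/11 and WT in the fit, 978 density calls were made, and with all 9 libraries of run 2, 1016. The WT of run 1 gave 1305 FP, 1409 mRNA and 1567 density calls, of which 880, 685 and 769 were shared with those reported and 8, 14 and 30 went the other way. The FP change of DAT1 was then -0.33 and that of PGM2 0.1408. With D1/8 in place of WT the mRNA change of AGA2 was 0.0042. STE3, which has few footprints, had an FP change of 0.9159 without D1/2/8/11 replicate 2 and -1.156 without replicate 1. The cause was not tested in any of these. Same-numbered cultures of D1/2/8/11 and D1/8 did not deviate together (r = -0.0509 in FP and 0.00236 in mRNA over ORFs), and the replicate block gave 1312 FP, 1125 mRNA and 1343 density calls and 318 and 284 relative to doubling. FP depth limits the low ORFs most, since the median ORF held 277 reads in 1 culture.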

Other observations

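The 28 mitochondrially encoded ORFs, which enter no comparison, had summed mRNA levels of 4823 and 5545 RPKM in D1/2/8/11, 1525 and 1651 RPKM in D1/8, 2150 RPKM in the WT of run 2 and 5700 RPKM in the WT of run 1. Their summed FP levels were 249.5 and 51.8 RPKM in D1/2/8/11, 43.3 RPKM in the WT of run 2 and 487 RPKM in the WT of run 1. The WT libraries thus lay on both sides of D1/2/8/11, and no direction is given.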
